A study of Mus musculus with 4 samples.

Results

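The 44 genes described here are interferon-stimulated genes, the transcripts that a cell makes when an interferon binds its receptors, and they were measured in B16-F10 mouse melanoma cells. They were listed by name, and the list was chosen by measured values of these arrays, because such genes were already known to differ between the 2 sets of cultures. That difference is therefore given as a description, with no test. Of the 44 genes, 42 had at least 1 probe that matched a RefSeq accession, among 23461 genes with a matched probe in all. Mx1 and Mx2 were not analysed here. The 42 genes had 63 probes. On all 4 arrays 36 genes were well above background, which is the scanner software's own flag, and 38 were so on both arrays of at least 1 group and entered the test. Ddx60, Oas3 and Ifi44 were well above background on none of the arrays. Oasl2 was so on the arrays of set 1 alone, and Oas2 and Trim30a on 3 arrays.

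B16-F10 is an established melanoma line of the mouse, and every array came from it. The control cultures received no recombinant protein, and the treated cultures received recombinant Cdh1 at 100 ng/mL for 24 h. All cultures were kept in Dulbecco's modified Eagle medium with 10% fetal bovine serum. Cdh1 is the mouse symbol of E-cadherin, the adhesion protein of epithelial cells, and the labels give the recombinant protein by that symbol only. The study asked which transcripts follow exposure to the protein. Set 1 and set 2 were independent, and each held 1 control and 1 Cdh1 culture. What set the cultures of the sets apart is not given in the labels. Cy3-labelled RNA from 100 ng of total RNA per culture was hybridised to 4 one-colour Agilent arrays, which shared 1 slide and 1 scan.

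Interferons of type I and type III bind paired receptor chains, whose Janus kinases switch on latent transcription factors, Stat2 among them. Stat2 joins Irf9 in a complex that binds the interferon-stimulated response element, a DNA motif in the promoters of antiviral genes, whereas interferon gamma acts mainly through another motif, the gamma-activated site. Many products of these genes sense viral nucleic acid, block translation or particle release, or tag proteins with the ubiquitin-like protein Isg15, and melanoma cells can run the programme without a virus.

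An array had 59305 non-control spots, of which 59.29% to 61.33% passed the background flag and 0 were saturated. The levels below are log2 signals relative to the 75th percentile of the array, so a level compares 1 probe between arrays and not 1 gene with another. A difference of 0.585 on this scale is 1.5-fold. The 10 melanocyte lineage markers, such as Pmel, Tyrp1, Dct and Mlana, were well above background on all 4 arrays, as the cell line's label requires. The number of arrays limits the precision, since 2 against 2 arrays cannot give an exact two-sided permutation p below 0.333. The RNA is bulk RNA, so fewer cells with a transcript and less of it per cell cannot be told apart.

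The promoters of a few members are shown because the response element is the sequence that the members are known for, and because members with and without a copy of its core differed widely and little between the sets. The sequences are from RefSeq, build GRCm38.p6, and each run is the 250 bases before the annotated start, written in the direction of the gene. Capitals mark the core of the response element, searched as GAAA, any 2 bases, GAAA, on both strands, so that its reverse complement appears as TTTC, any 2 bases, TTTC. Isg15, at chr4:156200819-156201068 (minus strand), had 3 overlapping copies.
Isg15: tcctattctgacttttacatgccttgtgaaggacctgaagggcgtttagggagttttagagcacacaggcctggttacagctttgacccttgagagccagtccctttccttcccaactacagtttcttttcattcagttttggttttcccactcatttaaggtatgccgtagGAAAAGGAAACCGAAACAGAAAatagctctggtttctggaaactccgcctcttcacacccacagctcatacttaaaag
Oas1a, at chr5:120907526-120907775 (minus strand), had 2 overlapping copies next to its start.
Oas1a: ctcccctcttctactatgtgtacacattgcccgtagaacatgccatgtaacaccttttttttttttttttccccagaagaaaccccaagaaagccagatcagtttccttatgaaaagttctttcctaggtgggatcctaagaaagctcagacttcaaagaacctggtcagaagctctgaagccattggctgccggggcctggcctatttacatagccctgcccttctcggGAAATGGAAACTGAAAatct
Ifit3, at chr19:34583279-34583528 (plus strand), had 2 separate copies on the other strand.
Ifit3: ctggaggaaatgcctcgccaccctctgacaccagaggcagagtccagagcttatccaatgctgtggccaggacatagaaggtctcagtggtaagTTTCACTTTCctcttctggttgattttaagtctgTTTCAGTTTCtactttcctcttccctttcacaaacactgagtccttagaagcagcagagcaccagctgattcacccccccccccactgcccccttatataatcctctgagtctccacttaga
Irgm1, at chr11:48871421-48871670 (minus strand), had 2 overlapping copies, and it is shown because it differed little between the sets.
Irgm1: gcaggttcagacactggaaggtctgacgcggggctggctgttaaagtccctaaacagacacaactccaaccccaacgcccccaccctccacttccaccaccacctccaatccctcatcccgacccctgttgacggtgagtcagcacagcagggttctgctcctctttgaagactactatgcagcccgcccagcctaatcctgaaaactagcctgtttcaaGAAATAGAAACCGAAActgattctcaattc
Gbp2, at chr3:142620413-142620662 (plus strand), had 1 copy, and its sets were 1.48-fold apart.
Gbp2: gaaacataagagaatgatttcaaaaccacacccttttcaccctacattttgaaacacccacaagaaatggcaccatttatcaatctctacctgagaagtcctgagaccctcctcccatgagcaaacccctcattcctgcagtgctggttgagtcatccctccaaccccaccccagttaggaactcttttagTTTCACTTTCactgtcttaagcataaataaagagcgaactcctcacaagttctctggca
Irf7, at chr7:141266425-141266674 (minus strand), had none of these letters in its window, and it is shown because it had the widest difference among the genes measured on all 4 arrays.
Irf7: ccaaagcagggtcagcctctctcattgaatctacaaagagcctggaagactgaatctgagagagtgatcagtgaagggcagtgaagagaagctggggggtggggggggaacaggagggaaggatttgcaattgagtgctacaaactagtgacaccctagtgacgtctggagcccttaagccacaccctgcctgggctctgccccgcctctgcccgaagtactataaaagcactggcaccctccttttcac

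Of the 44 genes, 34 had a promoter entry, with 39 promoters that reach from 250 bases before to 50 bases after the start. A copy of the core was in the promoters of 18 of them (52.9%), against 3.99% of the 27025 genes in the table. Among the 63 further interferon-stimulated genes with an entry, 29 (46%) had a copy. The core of the gamma-activated site, searched as TTC, any 3 bases, GAA, was in 7 of the 34 genes (20.6%) and in 9.55% of all genes. It was found in Irf1, Ifi35, Ifit2, Igtp, Oas1a, Eif2ak2 and Bst2, and only in Bst2 did it overlap a copy of the response element's core. Over the members measured on all 4 arrays, the median difference of set 2 minus set 1 was -1.60 for the 15 genes with a copy of the response element's core, -1.06 for 14 with no copy and -1.12 for 7 with no entry. The 3 groups overlapped widely, from -2.66 to -0.16 with a copy and from -3.13 to 0.33 without. Split by the core of the gamma-activated site, the median was -0.54 for 7 genes with a copy and -1.42 for 22 with none. These groups overlapped widely too, from -2.66 to 0.33 with a copy and from -3.13 to 0.15 without. A match is a description of letters in the window and not a measured binding site.

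Interferon-stimulated genes had nearly the same level in Cdh1 and control cultures of a set, and most were lower in both cultures of set 2 than in both cultures of set 1. Of the genes measured on all 4 arrays, Irf7, Oasl1 and Oas1a stood furthest apart between the sets, at 8.73-fold, 7.83-fold and 6.33-fold. With normexp background correction and quantile normalization they were 4.66-fold, 4.15-fold and 2.94-fold apart, and Isg15 (4.07-fold), Ddx58 (3.17-fold) and Rsad2 (3.07-fold) were then further apart than Oas1a. Over the 38 genes tested, the median of set 2 minus set 1 was -1.30, which is 2.46-fold, beside -0.03 for all 14451 genes tested. At least 1.5-fold lower in set 2, both between the controls and between the Cdh1 arrays, were 27 of 38 members, beside 4.8% of all genes, and 25 of the 36 members measured on all 4 arrays, beside 4.47%. At least 2-fold lower were 24 members, beside 1.83%. Higher by 1.5-fold or more in set 2 were 0 members, beside 2.64%. Both levels of set 2 were below both levels of set 1 for 36 of 38 members, beside 40.7% of genes. Since these values chose the list, the shares describe it and test nothing.

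**Figure D1:**
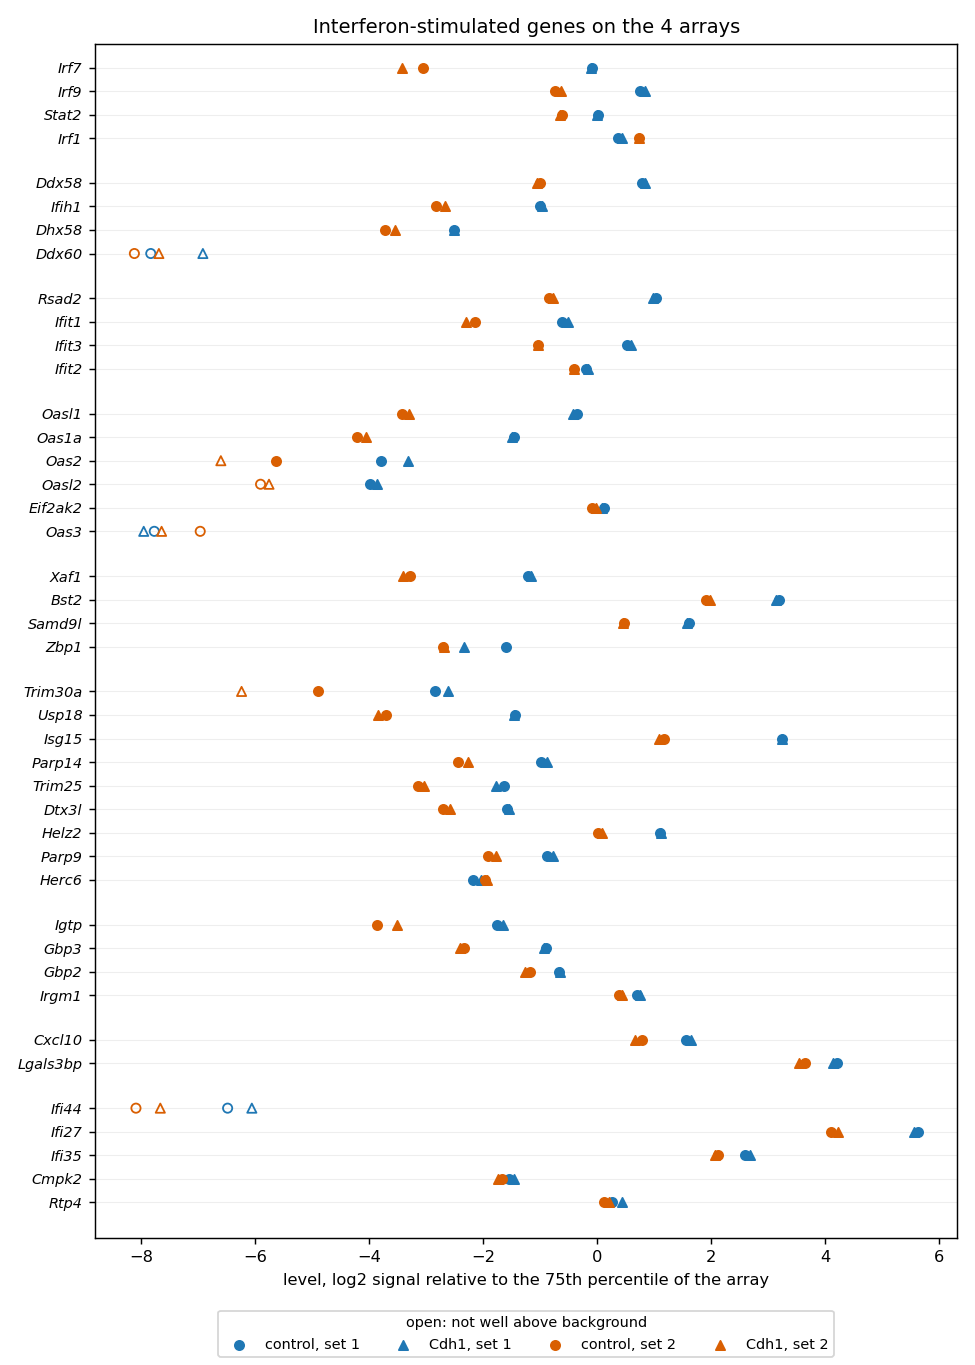
Level of 42 interferon-stimulated genes on each array, as log2 signal relative to the 75th percentile of the array on the horizontal axis, with genes grouped by role on the vertical axis. Circles are control and triangles Cdh1 arrays, blue is set 1, orange is set 2, and open symbols were not well above background. Symbols of 1 colour lie close together, and orange lies to the left of blue for most genes, by 8.73-fold for Irf7, but to the right for Irf1 and Herc6.

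A set difference can be taken from the controls alone or from the Cdh1 arrays alone, and the 2 values were close for most members. For the 36 members measured on all 4 arrays, the 2 values were a median of 0.11 apart, and 34 of them lay within 0.3 of each other. By construction, this gap equals the gap between the Cdh1 differences of the 2 sets. The set difference chose the list, and no share of all genes is given beside these values. They therefore describe the members and do not set them apart. The widest gap was 0.76 for Zbp1, and Irf7 was the other gene beyond 0.3, with -2.95 between the controls and -3.30 between the Cdh1 arrays.

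**Figure D2:**
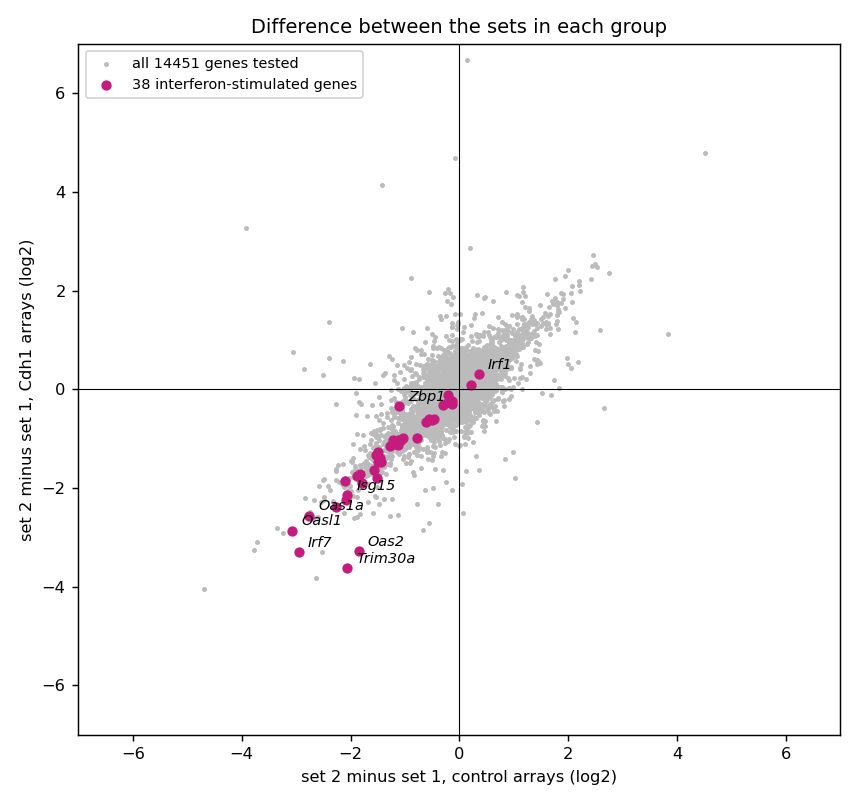
Difference of set 2 minus set 1 between the control arrays (horizontal axis, log2) and between the Cdh1 arrays (vertical axis, log2) for all 14451 genes tested in grey and 38 interferon-stimulated genes in magenta. Most members lie in the lower left, near the diagonal, from -3.07 for Oasl1 on the horizontal axis, while Oas2 and Trim30a, which were not well above background on the Cdh1 array of set 2, lie below the diagonal.

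Levels on single arrays are given in the order control of set 1, Cdh1 of set 1, control of set 2 and Cdh1 of set 2. Counts of lower genes in each role group stand beside 4.8% of all genes at 1.5-fold and 1.83% at 2-fold. Sets that do not overlap, with set 2 the lower, stand beside 40.7% of all genes, so this trait alone does not set a gene apart. The counts describe genes that this difference chose. Among the transcription factors, Irf7, which drives and amplifies the making of type I interferon, had levels of -0.10, -0.12, -3.05 and -3.42. Both arrays of set 1 were high and both of set 2 low, without overlap, by 7.73-fold between the controls and 9.86-fold between the Cdh1 arrays. The Cdh1 difference was -0.02 in set 1 and -0.37 in set 2, the largest of this role group among the brightest probes of the genes. Irf9, the DNA-binding subunit of the type I response complex, was at 0.75, 0.83, -0.74 and -0.65. Its sets did not overlap and were 2.80-fold apart. Stat2, the partner of Irf9 in that complex, was 1.56-fold lower in set 2, again without overlap. Irf1, a factor best known as a target of interferon gamma, had levels of 0.37, 0.43, 0.72 and 0.74. Here set 2 was the higher set, by 1.26-fold. Another probe of Irf1, in the next to last row of spots, went the other way, with -0.79 between the controls and -0.19 between the Cdh1 arrays, and averaging the probes gave -0.08, so the direction for Irf1 depends on the probe.

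All 3 RNA sensors with a signal were at least 2-fold lower in set 2. Ddx58 encodes RIG-I, a cytosolic receptor for viral RNA ends, and its levels were 0.78, 0.84, -1.01 and -1.05. Ifih1 encodes MDA5, which senses long double-stranded RNA, and its levels were -1.01, -0.97, -2.83 and -2.68. Dhx58, for the regulatory helicase LGP2, had levels of -2.51, -2.51, -3.73 and -3.54. In each of the 3 genes the 2 arrays of set 1 were above those of set 2, by 3.58-fold, 3.39-fold and 2.18-fold in that order. The Cdh1 difference stayed between -0.04 and 0.19 in both sets. Further probes of Ddx58 gave set differences of -2.14 and -1.37, the same direction as -1.84 of the probe used.

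The antiviral enzyme viperin and the Ifit proteins, which bind viral RNA and hold back its translation, included 3 of 4 genes that were lower by 1.5-fold or more. Rsad2, the gene of viperin, had levels of 1.03, 0.98, -0.85 and -0.78. Ifit3, whose human counterpart stabilises IFIT1 complexes, was at 0.52, 0.59, -1.05 and -1.05. Ifit1 itself was 3.16-fold lower in set 2. Ifit2 differed far less than its neighbours in the family, with levels of -0.20, -0.17, -0.41 and -0.42. Its sets still did not overlap, at 1.17-fold apart. Near-identical copies such as Ifit3b can share signal with an Ifit3 probe, so the share of each gene is uncertain.

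The oligoadenylate synthetases make a messenger nucleotide when they bind double-stranded RNA, and some relatives act without that activity. Oasl1, a relative that holds down translation of Irf7 in the mouse, was at -0.36, -0.43, -3.43 and -3.29. Oas1a, one of the active synthetases, was at -1.46, -1.50, -4.22 and -4.06. For both genes the arrays of set 1 were high and those of set 2 low, with no overlap between sets and with Cdh1 beside its own control in each set. Oas2 was -3.79, -3.32 and -5.64 on the arrays that measured it and not well above background on the Cdh1 array of set 2. Oasl2 was measured in set 1 alone, at -3.98 and -3.86, and was at least 3.56-fold higher there than in set 2. For that bound, the mean of set 1 was set against a floor on each array of set 2, the lowest signal of any probe that passed the background flag, or the Oasl2 signal where that was higher. This bound and those of other genes below hold for the signal as reported and were not computed with normexp correction. Eif2ak2 encodes PKR, the kinase that stops translation on double-stranded RNA, and had levels of 0.11, 0.09, -0.10 and -0.03. PKR was thus the least different of this role group, at 1.12-fold, and its sets did not overlap.

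Restriction factors and death sensors were lower by 1.5-fold or more in 3 of 4 measured genes. Xaf1, a promoter of cell death that antagonises the inhibitor XIAP, was at -1.21, -1.16, -3.29 and -3.41. Bst2, or tetherin, which holds budding virus particles at the cell surface, was at 3.18, 3.14, 1.91 and 1.98. In both genes the arrays of set 2 were the low ones, by 4.47-fold for Xaf1 and 2.32-fold for Bst2. Samd9l, a growth suppressor that restricts poxviruses, was 2.18-fold lower. Zbp1, a sensor of Z-form nucleic acid that triggers necroptosis, did not follow the others, with levels of -1.60, -2.35, -2.71 and -2.69. Its control of set 1 stood alone at the high end, and the other 3 arrays lay within a narrow band. The difference between the sets was -1.11 in the controls and -0.35 in the Cdh1 arrays.

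Of the 9 tested genes around Isg15 and the ubiquitin ligases, 8 were lower by 1.5-fold or more, as were 7 of the 8 measured on all 4 arrays. Isg15, which is joined to other proteins as a tag, had levels of 3.24, 3.23, 1.17 and 1.09. Usp18, the protease that removes Isg15 and blocks the type I receptor, had levels of -1.44, -1.46, -3.70 and -3.84. Both were high in set 1 and low in set 2, by 4.29-fold and 4.99-fold, and each Cdh1 array was close to its control. Parp14, an ADP-ribosyltransferase, was at -0.99, -0.88, -2.45 and -2.27. Trim25, a ubiquitin ligase that works with RIG-I, was 2.60-fold lower in set 2. Parp9 and Dtx3l, which form 1 complex of an ADP-ribosyltransferase-like protein and a ubiquitin ligase, were 2.02-fold and 2.11-fold lower. Helz2, a helicase and nuclear receptor coactivator, was 2.07-fold lower by the probe used, while another of its probes gave a set difference of -0.19. Herc6, the ligase that attaches Isg15 in the mouse, was at -2.18, -2.03, -1.97 and -1.94. It was 1.11-fold higher in set 2, the opposite direction to the Isg15 and Usp18 transcripts, although the span of its 4 levels was small. Trim30a had levels of -2.84, -2.61 and -4.90 on the arrays that measured it.

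Immunity-related GTPases and guanylate-binding proteins, which attack the vacuoles of intracellular microbes, split evenly: 2 of 4 were lower by 1.5-fold or more. Igtp was at -1.77, -1.65, -3.87 and -3.51, and its sets did not overlap. Gbp3 was 2.74-fold lower in set 2. Gbp2 was 1.48-fold lower, just short of the threshold between the controls at 1.43-fold and past it between the Cdh1 arrays at 1.53-fold. Irgm1, a regulator of the other GTPases, was at 0.69, 0.75, 0.38 and 0.44. Its 3 probes gave differences of -0.31, -0.32 and -0.16. The promoters of Irgm1 and Gbp2 printed above hold copies of the response element's core, as do those of Isg15 and Oas1a with their wider differences.

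Cxcl10, a chemokine that draws activated T cells, had levels of 1.55, 1.65, 0.78 and 0.66. Lgals3bp, a secreted glycoprotein that binds galectins, had levels of 4.20, 4.14, 3.65 and 3.54. The sets did not overlap for either, and they were 1.83-fold apart for Cxcl10 and 1.49-fold for Lgals3bp. Ifi27, a mitochondrial membrane protein, was at 5.63, 5.55, 4.10 and 4.22, with the arrays of set 2 lower by 2.69-fold. Ifi35, a leucine zipper protein, was 1.45-fold lower. Cmpk2, a mitochondrial nucleotide kinase that lies beside Rsad2 in the genome, was 1.16-fold lower, against 3.52-fold for its neighbour Rsad2. Rtp4, a receptor chaperone with antiviral activity, was at 0.25, 0.43, 0.11 and 0.20. Its Cdh1 array was the higher one in both sets, by 0.18 in set 1 and 0.09 in set 2.

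The fold between the sets depended on how the signal was processed, most of all for 8 genes. After normexp correction with an offset of 50 and quantile normalization, their fold was smaller by a factor of over 1.5. Their set differences were then -2.22 for Irf7, -2.05 for Oasl1, -1.55 for Oas1a and -1.43 for Usp18. Those of Xaf1, Igtp, Oas2 and Trim30a were -1.38, -1.18, -0.74 and -0.96. Outside these 8, Ifih1 fell from 3.39-fold to 2.38-fold and Dhx58 from 2.18-fold to 1.57-fold. All 8 kept their direction and stayed past 1.5-fold on average. The signals of these genes were lower in set 2 under both ways of processing. The background step, the offset and the normalization changed together, so their parts in the smaller folds cannot be told apart.

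No member passed the test of Cdh1 against control, and none was 1.5-fold higher or lower with Cdh1 in both sets. In limma's fit over all 32568 probes tested, with Benjamini-Hochberg adjustment, 0 of 49 member probes had an adjusted p under 0.05, and the lowest adjusted p was 1. The background was 0% of all probes. At an unadjusted p under 0.05, limma gave 0 member probes, beside 1.72% of all. This fit has no block, so the set difference that chose the list counts as error in it. The standard error of the Cdh1 difference of Irf7 was 1.58 there, against 0.12 with the set as a block. Few calls among the members were therefore built into the fit without a block. With the set as a block, limma called 0 member probes, beside 0% of all, with a lowest adjusted p of 0.669. At an unadjusted p under 0.05, that fit gave 1 member probe (2.04%), beside 7.17%. It was the Irf1 probe in the next to last row, with a Cdh1 difference of -0.70 over the sets, while the probe used for Irf1 differed by 0.06 and 0.01. Higher by 1.5-fold with Cdh1 in both sets were 0 of 38 members, beside 0.159% of genes, and lower were 0, beside 0.221%. The adjusted calls and these counts lie near the shares of all probes or genes, so they do not set the members apart.

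The Cdh1 difference of a typical member was close to 0. Its median over the 38 genes was 0.01, with 0.03 in set 1 and 0.01 in set 2, beside -0.01 for all genes. Of the 36 genes measured on all 4 arrays, 33 differed by less than 0.25 in each set. No share of all genes is given beside this count, so it does not set the members apart. The median over all genes tested was close to 0 too, at -0.02 in set 1 and -0.01 in set 2. In the fit with the set as a block, the 95% interval reached a median of 0.21 to either side. For Isg15 the difference was -0.04 with an interval from -0.25 to 0.16, and for Rsad2 it was 0.01 with an interval from -0.22 to 0.23. Intervals of this width cover modest differences in both directions, so a missed threshold does not show equal levels.

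The 3 exceptions were Zbp1, Irf7 and Igtp. Zbp1 was -0.75 with Cdh1 in set 1 and 0.01 in set 2, with the widest interval of them, from -1.10 to 0.37. Irf7 was lower by 0.02 and 0.37, with an interval from -0.57 to 0.18. Igtp was higher with Cdh1 in both sets, by 0.12 and 0.36, with an interval from -0.05 to 0.53 and an adjusted p of 0.736 in limma's blocked fit. Next by the p of the blocked fit were Parp14, at 0.11 and 0.18, and Parp9, at 0.11 and 0.15. Their adjusted p values in limma's blocked fit were 0.771 and 0.786. Among genes near background, Trim30a differed by 0.22 in set 1 and -1.34 in set 2, and Oas2 by 0.47 and -0.96, each with a Cdh1 array of set 2 that was not well above background.

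**Figure D3:**
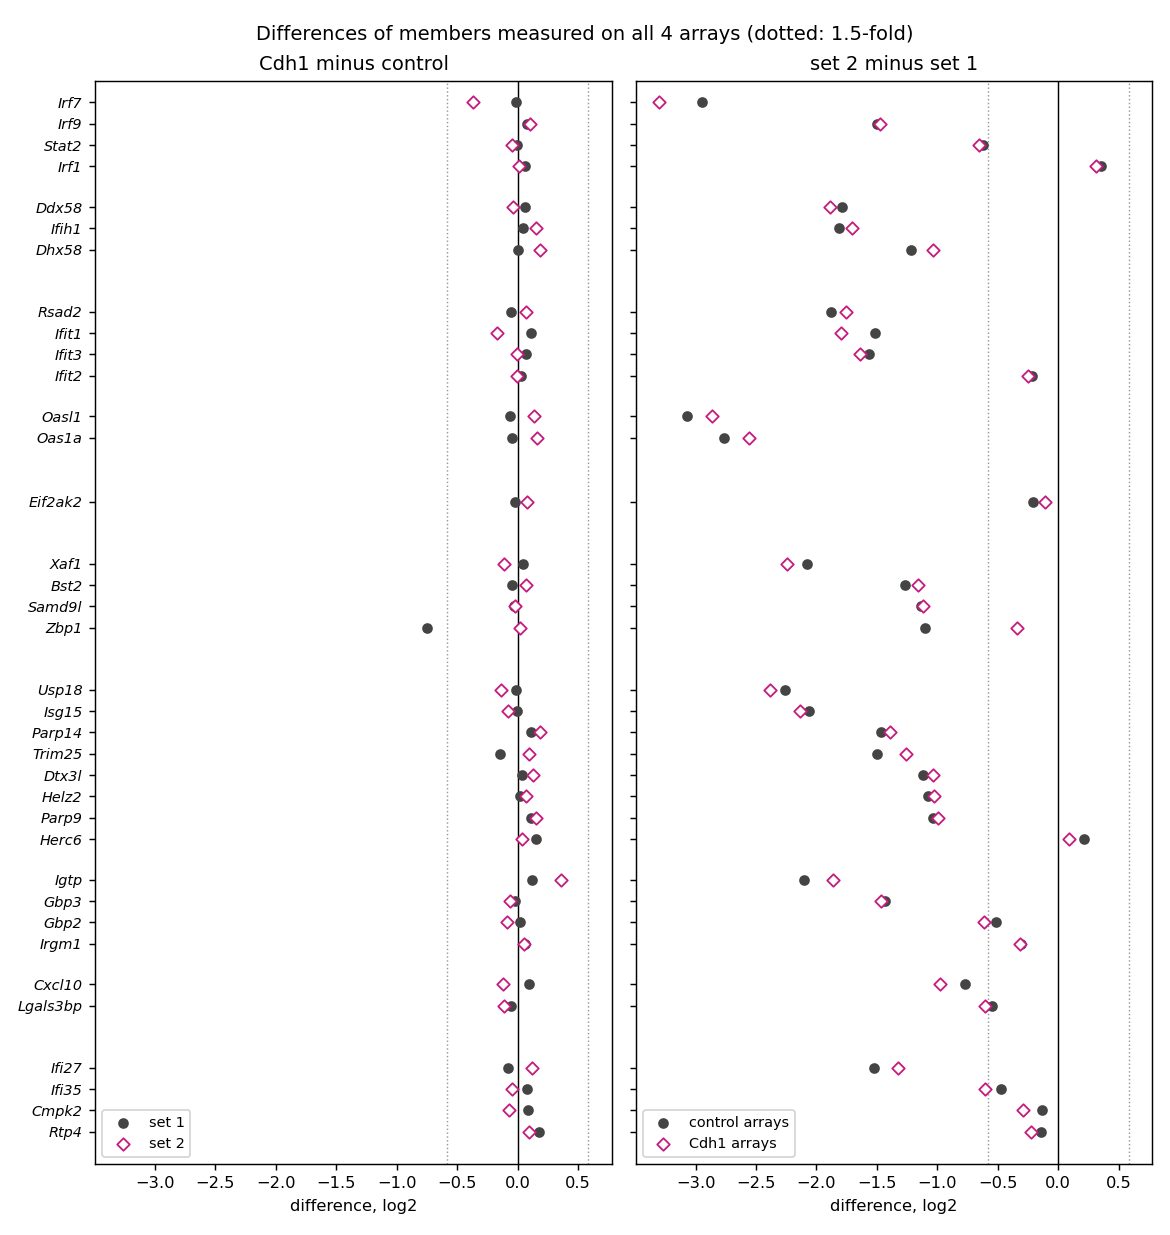
Differences of the 36 members measured on all 4 arrays, in log2, with Cdh1 minus control on the left (circles set 1, diamonds set 2) and set 2 minus set 1 on the right (circles control arrays, diamonds Cdh1 arrays), on 1 shared scale with dotted lines at 1.5-fold. On the left nearly all points lie close to 0, with Zbp1 at -0.75 in set 1 as the exception beyond the line, and on the right they reach -3.30 for Irf7.

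The pathway around the members was measured in further lists, which the members are not part of. In limma's fit, 0 of its 89 genes tested were called between Cdh1 and control, beside 0% of all probes. Of the interferon genes themselves, 7 were measured on all 4 arrays, and their median set difference was 0.09. They were Ifna1, Ifna2, Ifna5, Ifna9, Ifna14, Ifnab and Ifnl3, of which the alpha genes are near-identical copies whose probes can share signal. Ifna1 had levels of -3.99, -3.85, -3.91 and -3.50, so the sets overlapped. Ifnab stood out on 1 array, with levels of -3.79, -4.00, -3.90 and -2.14. Ifnk was well above background on the arrays of set 2 alone, and at least 1.46-fold higher there. None of the 7 was 1.5-fold lower in set 2 in both groups, beside 4.8% of all genes, so this count does not set them apart. Ifnb1 and Ifng were well above background on none of the arrays.

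The type I receptor chains were at similar levels on all arrays. Ifnar1 was at 2.03, 2.08, 2.13 and 2.24, and Ifnar2 at 1.67, 1.59, 1.75 and 1.76. The chains of the interferon gamma receptor, Ifngr1 and Ifngr2, differed between the sets by -0.18 and -0.23. Ifnlr1, the chain specific to type III interferon, was the receptor with the widest difference, at -2.87, -3.05, -4.09 and -3.80. Its sets did not overlap, at 1.98-fold apart. Its partner Il10rb differed by -0.37. Among the signal carriers, Jak1, Jak2, Tyk2 and Stat5b differed by 0.03 to 0.13 and Stat5a by -0.15. Stat3 was 1.48-fold lower.

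Negative regulators differed little, with a median of -0.11 over 9 genes. Adar, the editor of double-stranded RNA, had the widest difference at -0.58, followed by Socs1 at -0.30, Trex1 at -0.27, Irf2 at -0.16 and Pias1 at -0.11. In the pathway that induces interferon, the median over 15 genes was -0.17. Nlrc5, the interferon-inducible activator of MHC class I genes, was the exception, with levels of -1.69, -1.24, -3.82 and -3.76. Its sets were 4.99-fold apart and did not overlap. Tmem173, the adaptor STING, differed by -0.51, Myd88 by -0.48, the DNA sensor Mb21d1 by -0.47 and the RNA receptor Tlr7 by -0.35.

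A wider list of interferon-stimulated genes held 45 tested genes, of which 13 were lower by 1.5-fold or more in set 2 in both groups, beside 4.8% of all genes, and 0 higher, beside 2.64%. Their median over the 44 measured on all 4 arrays was -0.33. The widest differences were -2.05 for Oas1f, -2.04 for Irgm2, -1.99 for Apol9b, -1.56 for Ifit3b and -1.46 for the chemokine Ccl5. In 4 more genes the arrays of set 1 alone were well above background, and set 1 was at least 6.04-fold higher for Trim30d, 5.06-fold for Trim34a (2.87-fold by another of its probes), 3.32-fold for Gbp7 and 2.08-fold for Gbp6.

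**Figure D4:**
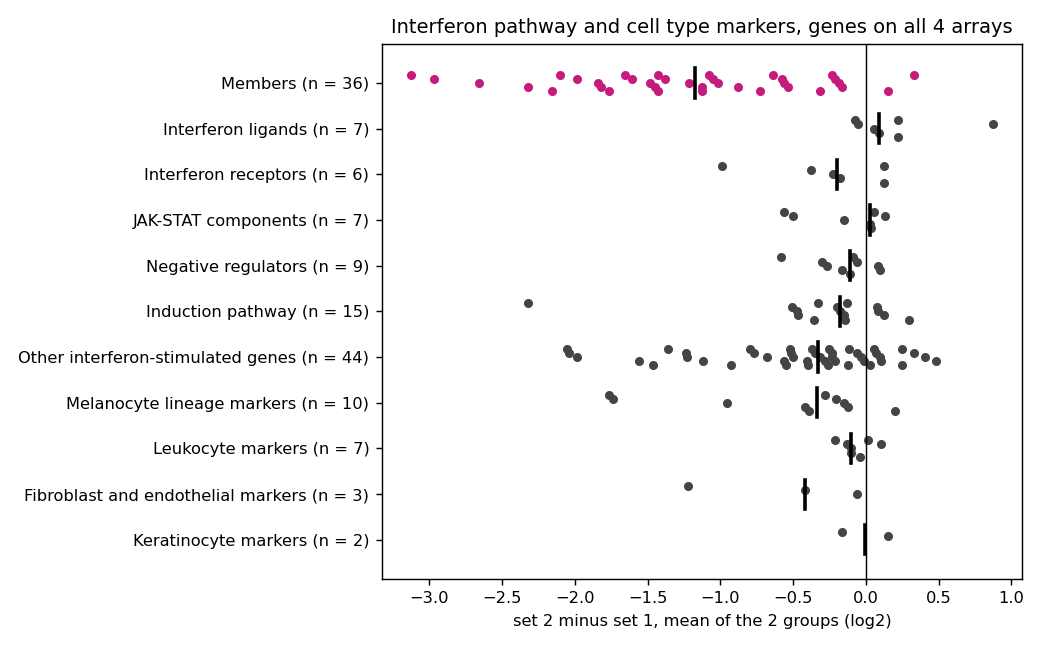
Difference of set 2 minus set 1 (horizontal axis, log2, mean of both groups) for each gene measured on all 4 arrays, in the members, the other interferon pathway lists and the cell type markers (vertical axis). Points are genes and bars are medians, which are -1.17 for the members, -0.33 for other interferon-stimulated genes and between -0.20 and 0.09 for ligands, receptors, signal carriers, negative regulators and the induction pathway.

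Markers of other cell types were compared between the arrays beside these results. Of 18 leukocyte markers, 7 were well above background on all 4 arrays and 8, Ptprc among them, on none. Their summed linear signal was 142.6, 143.0, 134.4 and 142.6 times the 75th percentile of the array in the order given above. A few bright probes set the size of such a sum, so it is compared between arrays and not between lists. The same sum over the 42 members was 122.9, 120.3, 55.8 and 56.4. Fibroblast and endothelial markers, with 3 of 8 on all arrays, summed to 0.22, 0.24, 0.17 and 0.18, and Col1a1 was the one lower by 1.5-fold or more in set 2. Keratinocyte markers summed to 0.09 on each array, with 2 of 5 on all arrays. The sum of melanocyte lineage markers was lower in set 2 as well, at 1749.7, 1715.0, 1467.3 and 1467.3. Of the 10 markers, Tyr, Oca2 and Slc45a2 were lower by 1.5-fold or more in set 2 in both groups, beside 4.8% of all genes, while Sox10 was higher in set 2 by 0.19 between the controls and 0.22 between the Cdh1 arrays. The part of other cells or of pigment state in the difference of the members was not tested. In the last 24 rows of spots, which hold 6.17% of all probes, lay 5 member probes, of which 3 represent Oasl1, Eif2ak2 and Cxcl10, and without those rows 26 of 36 members were lower in set 2 by 1.5-fold or more.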

How the data were processed

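RNA of 4 cultures was measured on one-colour arrays. Scanning software of the authors was Agilent Feature Extraction 12.0.3.1, and the deposited scanner intensity is the Cy3 signal after background subtraction and detrending within the array, with no scaling between arrays, per the file headers. The deposited table of the whole series held the same intensity times 1 factor per array, from 0.8735 to 0.930, and was an alternative.

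A level is the log2 processed intensity, less the 75th percentile of the array's non-control spots. Outlier spots were left out and spots of a probe averaged. A probe passed on an array when the flag was set for more than 0.5 of its spots. Probes above background on both arrays of a group were tested, and the brightest probe stood for its gene. Of 56605 probes, 33767 were named through RefSeq accessions (GRCm38.p6), while the headers name mm9 for the array design.

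Cdh1 and control were compared with limma 3.58.1 in R 4.3.3 (lmFit and eBayes, no block, Benjamini-Hochberg over all probes, threshold 0.05), checked on simulated data. The labels' set numbers mark shared culture sets, and the deviations of same-set arrays correlated at r = 0.74 over 31155 probes, so the set served as a block in an alternative. The sets are called independent, with no more said, so p-values measure the spread between these cultures. Python 3.11.15, pandas 2.3.3 and matplotlib 3.10.9 were used.

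The members and lists were chosen with earlier results of these data known. Values on every array are given for the members of each role with the largest set, largest Cdh1 and smallest set difference, and Irf9, Bst2 and Isg15 were added after their values were seen. From the pathway lists, every detected ligand, receptor and signal carrier and the 5 widest set differences of the remaining lists were named, apart from a gene that is not reported here.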

Additional observations from a re-analysis of the deposited data

How the results depend on the processing

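The median set difference of the members, -1.30 as reported, was -0.96 with normexp background correction and quantile normalization, -1.17 over genes above background on all 4 arrays and -1.40 without the last 24 rows of spots. With 1 array left out in turn it ranged from -1.34 to -1.25. The median Cdh1 difference, 0.01 as reported, was -0.030 with median centring and 0.038 in the authors' table, and it ranged from -0.64 to 0.66 with 1 array left out, since the sets are then unequal between the groups by construction. At 1.5-fold, between 25 members (of 38 with normexp, of 36 above background on all 4 arrays) and 29 (of 42 with no filter) were lower in set 2 under the alternatives, against 27 of 38 as reported, and 0 were higher. At 2-fold, 24 of 38 were lower. With the set as a replicate block, with a robust trended prior, and in each other fit, limma called 0 members between Cdh1 and control, with a lowest adjusted p of 0.669 under the block, which changed no call. With 1 array left out, the lone array of a group is assumed to vary like the other group, and the 0 calls of these fits say nothing about stability. Counts that need both sets could not be made with 1 array left out. Of 300 set differences of single genes under the alternatives that kept all arrays, 299 kept their sign, the exception being Irf1 with its probes averaged, and 219 of 221 stayed past 1.5-fold. Of 300 Cdh1 differences, 276 kept their sign. No scaling moved the median of all genes by over 0.1. The arrays, 2 per group, and signals near background limit the precision of Oas2, Oasl2 and Trim30a.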
